A study of Mus musculus with 34 samples.

Results

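Gene expression in CD8- dendritic cells (DCs) that lack the kinases Mst1 and Mst2 was compared with that in wild-type (WT) CD8- DCs, on the 8 arrays whose titles name these cells, of 34 in the series. The cells were sorted by FACS from the spleens of C57BL/6 mice, with 4 arrays labelled WT and 4 labelled Mst1/2-KO (genotype Mst1/2-/-), and no treatment is named. The 8 arrays of CD8+ DCs (4 WT and 4 Mst1/2-KO), sorted and labelled under the same experiment label, and 7 arrays of total DCs (4 WT and 3 Mst1/2-KO), under another label, served to show where the CD8- cells differ. All of these mice carry the C57BL/6 strain label. The labels give neither the allele nor the cells in which Mst1 and Mst2 were deleted, and neither the age nor the sex of the animals. Whether the 4 arrays of a group stem from 4 animals, from pools or from fewer animals is likewise not stated, so each p-value measures the spread between these arrays, which may be technical.

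Mst1 and Mst2 are the kinases at the head of the Hippo pathway. They activate the kinases Lats1 and Lats2, which restrain the transcriptional co-activators YAP and TAZ, partners of the TEAD factors, and they also act in leukocyte adhesion and survival through other partners. CD8- DCs are the main splenic DCs that present antigen to CD4 T cells. They fall into ESAM-high cells, which depend on Notch2 signalling and lie near the marginal zone, and ESAM-low cells, which share genes with monocytes. In bulk RNA of sorted cells, fewer cells of a type and less RNA per cell cannot be told apart.

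Levels below are log2 signals per array, normalized by the authors, and group levels are means ± SD over 4 arrays. A difference is the Mst1/2-KO mean minus the WT mean on the log2 scale, ± SE, so that 1 unit is a 2-fold change. A gene counts as called where its limma p-value, adjusted by Benjamini-Hochberg over all genes tested, was under 0.05. There is no read depth behind an array signal, and the precision rests on how many arrays there were, on their spread and on the signal level. The median signal over all probe sets was between 4.11 and 4.20 on every array. The CD8- label fitted its markers, since Cd8a, the gene of the sorting marker, was at 6.69 ± 0.30 in WT and 7.37 ± 0.57 in Mst1/2-KO CD8- arrays against 12.11 ± 0.09 and 12.10 ± 0.13 in the CD8+ arrays. The mean of 23 measured CD8- DC identity genes was 8.41 to 8.63 over the WT CD8- arrays and 6.16 to 6.51 over the WT CD8+ arrays. Sirpa, a surface receptor of CD8- DCs, was at 10.64 ± 0.09 and 10.36 ± 0.09 in the WT and Mst1/2-KO CD8- arrays. Itgax, the gene of CD11c, was at 10.59 ± 0.06 and 10.53 ± 0.09 there. These 2 genes are not compared with the CD8+ arrays here.

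Y-linked genes, which give a measure of the animals behind the arrays, were not at the same level in both genotypes. The mean signal of Eif2s3y, Kdm5d and Uty was 5.37, 5.31, 5.25 and 5.13 in the WT CD8- arrays (replicates 1 to 4) and 4.45, 4.94, 4.23 and 4.96 in the Mst1/2-KO CD8- arrays, without overlap. Xist, which female cells express, was at 6.91 ± 0.12 and 6.94 ± 0.10. None of the 4 sex-linked genes was called, the adjusted p being 0.106 for Eif2s3y, 0.119 for Kdm5d, 0.0617 for Uty and 0.941 for Xist. With the Y-linked mean as a covariate the fit called 611 genes in CD8- DCs in place of 1482, 548 of them among the 1482. Genotype and this mean move together in these arrays, and its part in the results was not tested beyond this covariate.

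Of the 22180 genes tested, 1482 were called in CD8- DCs (6.68%), 864 higher (3.9%) and 618 lower (2.79%) in Mst1/2-KO arrays. The 4 Mst1/2-KO arrays did not overlap the 4 WT arrays for 2657 genes (12%), lying above them for 1446 (6.52%) and below them for 1211 (5.46%). The shares of called genes, 3.9% higher and 2.79% lower, are those to set beside the count of each gene list below. The count of a list with few called members is a description. The median difference over all genes was 0.002. Without Mst1/2-KO replicate 4 the fit called 918 genes, and without WT replicate 2 it called 940.

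**Figure D1:**
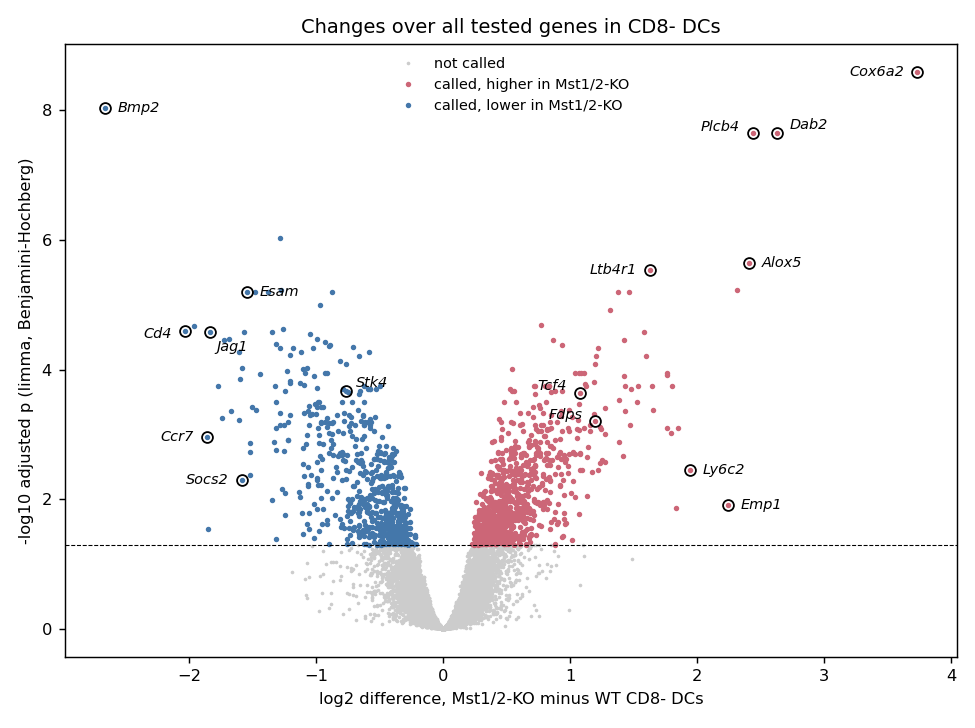
Each point is 1 of the 22180 genes tested, with the log2 difference between Mst1/2-KO and WT CD8- DCs on the x axis and the -log10 of the adjusted p on the y axis (dashed line at 0.05). Of the called genes, 864 lie to the right and 618 to the left, with Cox6a2 and Bmp2 as the outermost points.

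The targeted kinase and its pathway were examined first. Stk4, the gene of Mst1, read 8.15, 8.40, 8.44 and 8.28 in the WT arrays (replicates 1 to 4, here and below) and 7.49, 7.67, 7.65 and 7.39 in the Mst1/2-KO arrays (-0.77 ± 0.10, adjusted p = 0.000211). Every Mst1/2-KO array was below every WT array, and the signal that remained was 7.55 ± 0.13. The sources used here do not say which exons the deletion removes or the probes cover. The Mst2 gene, Stk3, was not analysed here. Of 25 measured Hippo pathway genes, 2 fell and 1 rose, against 2.79% and 3.9% of all genes, with a list median of 0.084. Besides Stk4, Rassf2, which encodes a protein that binds the Mst kinases, fell (-0.39 ± 0.10), and Amot, a scaffold that holds YAP in the cytoplasm, rose (0.34 ± 0.08). The downstream kinase genes Lats1 (0.11 ± 0.08) and Lats2 (0.24 ± 0.14), the adaptor gene Sav1 (0.12 ± 0.08) and the genes of YAP (Yap1, -0.10 ± 0.12) and TAZ (Wwtr1, 0.04 ± 0.10) were not called.

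Of 15 measured genes that YAP and TAZ are known to drive in other cells, 1 was called, beside 6.68% of all genes. It was Crim1, a transmembrane protein that binds BMPs, which read 4.99, 4.43, 4.61 and 4.88 in WT and 5.42, 5.37, 5.67 and 5.6 in Mst1/2-KO arrays, without overlap (0.79 ± 0.18, adjusted p = 0.011). The widely used targets Ccn1 (-0.15 ± 0.14), Ccn2 (-0.17 ± 0.12) and Ankrd1 (0.16 ± 0.10) were not called, and their WT means of 4.09, 4.34 and 3.27 were near or below the array median. The list median was -0.048. In RefSeq promoter windows of 250 bases before the gene start (GRCm38.p6), the TEAD motif GGAATG, on either strand, was in 7 of the 11 target genes that had a window (63.6%) and in 13.4% of 16990 windows of tested genes. The call of Crim1 ended with the Y-linked covariate (adjusted p = 0.0743). That of Amot ended without WT replicate 4 or Mst1/2-KO replicate 4 (adjusted p up to 0.0608). That of Rassf2 ended with the Y-linked covariate (0.125) and without WT replicates 1, 2 or 4 or Mst1/2-KO replicates 1, 2 or 4 (adjusted p up to 0.1).

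Genes of the ESAM-high, Notch2-dependent CD8- DCs were lower in the Mst1/2-KO arrays. Of 10 measured genes, 9 fell and 0 rose, against 2.79% and 3.9% of all genes. The list median was -1.197. Several of these genes were known to fall when the list was drawn up, so its count is a description. Cd4, the co-receptor that most splenic CD8- DCs carry, read 10.23, 10.60, 10.79 and 10.30 in WT and 8.88, 8.67, 8.19 and 8.04 in Mst1/2-KO arrays. Even the highest Mst1/2-KO array was more than 1 unit below the lowest WT array (-2.03 ± 0.21, adjusted p = 2.53e-05). Esam, the adhesion molecule that names the subset, read 6.34, 6.18, 6.34 and 6.45 against 5.15, 4.70, 4.64 and 4.63, a 2.92-fold fall (adjusted p = 6.43e-06). Its Mst1/2-KO replicate 1 stood above the other 3. Clec4a4, the lectin DCIR2 that the 33D1 antibody detects, read 10.69, 11.14, 11.19 and 10.88 against 9.94, 10.21, 9.86 and 9.60 (-1.07 ± 0.17, adjusted p = 0.00102). Tlr5, the flagellin sensor, went from 7.46 ± 0.17 to 6.13 ± 0.13 (adjusted p = 0.000181), and Cr2, complement receptor 2, from 5.47 ± 0.48 to 3.88 ± 0.31 (adjusted p = 0.00014), both without overlap. Cr2 is also counted among the B cell genes below.

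A Notch ligand and 2 target genes were among the ESAM-high genes that fell. Jag1, a Notch ligand, read 6.07, 7.04, 7.29 and 7.02 in WT and 5.17, 5.13, 4.92 and 4.87 in Mst1/2-KO arrays. WT replicate 1 was the lowest WT array and still lay above all Mst1/2-KO arrays (-1.84 ± 0.19, adjusted p = 2.64e-05). Dtx1, the ubiquitin ligase Deltex that Notch induces, read 8.95, 9.01, 9.44 and 9.35 against 8.27, 8.33, 8.21 and 7.73 (-1.05 ± 0.16, adjusted p = 0.000723), and its other probe set differed by -1.09 ± 0.22. Hes1, a repressor and Notch target, read 7.20, 6.95, 6.64 and 7.11 against 6.05, 6.32, 5.72 and 5.87 (-0.98 ± 0.16, adjusted p = 0.00102), with no overlap. Nrarp, another Notch target, was near the array median at 3.95 ± 0.32 and was not called (-0.23 ± 0.14). Among the receptors, Notch2 was at 8.74 ± 0.07 and 8.88 ± 0.14 (adjusted p = 0.432), while Notch1 rose (0.43 ± 0.08, adjusted p = 0.00417). Rbpj, the DNA-binding partner of Notch, was not called (0.22 ± 0.07), and Aph1a, a subunit of gamma-secretase, which releases the Notch intracellular domain, rose (0.46 ± 0.11). Over the 26 measured Notch pathway genes, 3 fell and 2 rose, with a median of 0.017. The 3 that fell, Jag1, Dtx1 and Hes1, are on the ESAM-high list too, as is Nrarp. The RBPJ motif GTGGGAA, on either strand, was in 1 of 6 ESAM-high promoter windows, that of Cr2, against 6.13% of all windows. With the Y-linked covariate the calls of Hes1 (adjusted p = 0.0698) and Notch1 (0.141) ended, and that of Aph1a ended with it (0.0554), in a fit of the 8 CD8- arrays alone and without WT replicate 2 or Mst1/2-KO replicate 4 (adjusted p up to 0.057).

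Some genes of ESAM-low cells rose. Of 10 measured genes, 4 rose and 1 fell, with a median of 0.578. Ly6c2, a monocyte surface antigen, read 10.25, 8.82, 8.60 and 10.24 in WT and 11.48, 10.64, 12.05 and 11.51 in Mst1/2-KO arrays (1.94 ± 0.37, adjusted p = 0.00349). WT replicates 2 and 3 were low, and the groups did not overlap. Among genes above the median gene, 2 ESAM-low genes rose. Clec10a and Mgl2, a pair of lectins that bind galactose-type sugars, were near or below the array median in WT cells. Clec10a read 3.58, 3.59, 3.23 and 3.37 against 4.64, 3.98, 4.28 and 5.37 (1.13 ± 0.20, adjusted p = 0.0022), and Mgl2 3.41, 3.60, 4.07 and 3.77 against 4.97, 4.70, 4.56 and 5.05 (1.11 ± 0.14, adjusted p = 0.000114). Cx3cr1, the fractalkine receptor, went from 9.16 ± 0.30 to 9.97 ± 0.17 (adjusted p = 0.0048). The gene that fell was Csf3r, the receptor of G-CSF (-0.35 ± 0.09). Ccr2 (0.75 ± 0.26), Clec12a (0.41 ± 0.13), Cd209a (0.16 ± 0.27), Csf1r (0.11 ± 0.15) and Lyz2 (0.00 ± 0.07) were not called. The mean of the 10 ESAM-high genes was 7.51 to 7.91 over the WT arrays and 6.31 to 6.66 over the Mst1/2-KO arrays. Several of these falls were known when the list was drawn up, so its mean is a description. The mean of the 10 ESAM-low genes was 7.90 to 8.32 and 8.59 to 8.84. Over the wider list of 23 measured CD8- DC identity genes, 4 rose and 6 fell, with a median of 0.085. The mean of that list overlapped between the genotypes, at 8.41 to 8.63 in WT and 8.36 to 8.51 in Mst1/2-KO arrays. With the Y-linked covariate the calls of Ly6c2 (adjusted p = 0.17) and Cx3cr1 (0.142) ended, and that of Csf3r ended with it (0.14), with an intensity trend, in the 8 arrays alone and without WT replicate 4 or Mst1/2-KO replicates 1, 3 or 4 (adjusted p up to 0.0923).

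**Figure D2:**
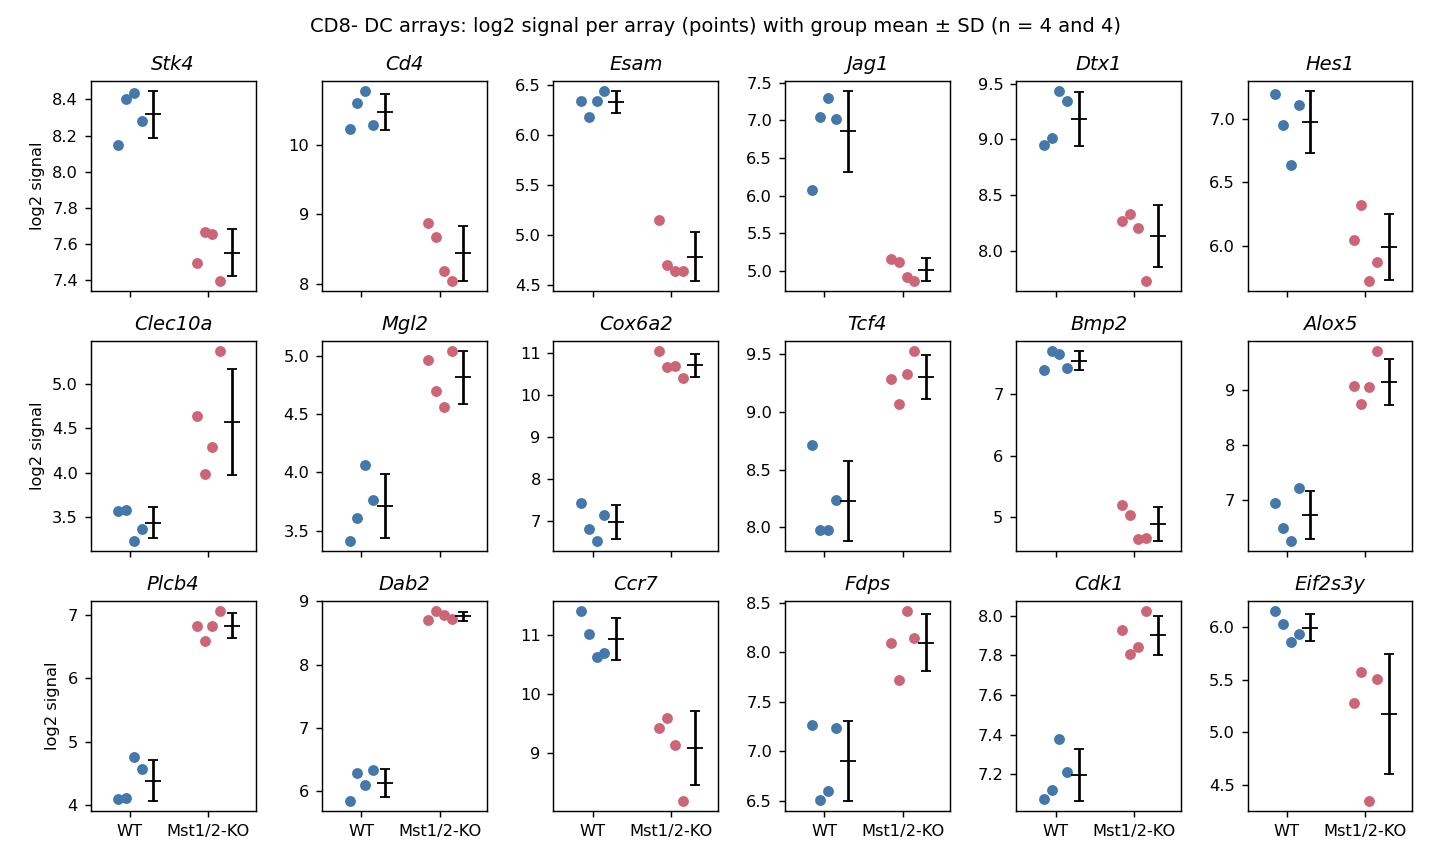
Log2 signal (y axis, a scale per panel) of 18 genes in each of the 4 WT (blue) and 4 Mst1/2-KO (red) CD8- DC arrays, with the mean ± SD of each group in black. For Cd4, Esam, Jag1, Dtx1 and Hes1 every Mst1/2-KO array is below every WT array, and for Cox6a2, Dab2 and Plcb4 every one is above.

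C-type lectins, receptors for sugars on microbes and cells, were mixed. Of 20 measured, 4 rose and 2 fell, with a median of 0.295 (2 rose among genes above the median gene). These counts include Clec10a and Mgl2 (higher) and Clec4a4 (lower), given above. Cd209d, a paralog of DC-SIGN, read 8.80, 8.07, 7.72 and 8.45 against 9.53, 8.96, 9.39 and 10.17 (1.25 ± 0.23, adjusted p = 0.00244), with all Mst1/2-KO arrays above the WT arrays. Ly75, the endocytic receptor DEC-205 of CD8+ DCs, read 6.26, 6.17, 6.40 and 6.39 against 5.77, 4.90, 5.83 and 4.91, its Mst1/2-KO arrays splitting into a higher pair (replicates 1 and 3) and a lower pair, all below WT (-0.95 ± 0.17, adjusted p = 0.00237). Related lectin genes can share sequence, and how far their probe sets cross-hybridize was not tested.

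Genes that mark plasmacytoid DCs, the interferon-producing DCs, rose in the Mst1/2-KO CD8- arrays. Of 15 measured, 8 rose and 0 fell, with a median of 0.534. Cox6a2, a subunit of cytochrome c oxidase, had the largest rise of all genes tested. It read 7.45, 6.82, 6.52 and 7.16 in WT and 11.07, 10.67, 10.71 and 10.42 in Mst1/2-KO arrays, so that every Mst1/2-KO array was more than 2 units above every WT array (3.73 ± 0.17, adjusted p = 2.53e-09). Tcf4, the transcription factor E2-2 that plasmacytoid DCs need, read 8.71, 7.98, 7.97 and 8.24 against 9.29, 9.07, 9.33 and 9.53 (1.08 ± 0.15, adjusted p = 0.000228). Bst2, the membrane protein tetherin, read 9.29, 8.75, 9.22 and 9.22 against 10.32, 9.81, 10.11 and 10.49 (1.06 ± 0.16, adjusted p = 0.000596), WT replicate 2 being the lowest. Upb1, an enzyme of pyrimidine breakdown, went from 5.74 ± 0.40 to 6.83 ± 0.52 (adjusted p = 0.00357). Siglech, the lectin that defines these cells, read 8.38, 7.79, 7.98 and 8.35 against 8.68, 8.20, 9.08 and 9.24, and the groups overlapped (0.68 ± 0.19, adjusted p = 0.0399). The markers Ccr9 (-0.09 ± 0.30), Ly6d (0.12 ± 0.12), Klk1 (0.21 ± 0.12), Pacsin1 (0.08 ± 0.11) and Lag3 (-0.32 ± 0.19) were not called. The mean of the 15 markers was between 6.75 and 7.19 over the WT and between 7.46 and 7.86 over the Mst1/2-KO CD8- arrays. In the total DC arrays it was between 6.6 and 7.32 and between 6.40 and 7.24, and the list median there was -0.33. Without WT replicate 3, 4 of the 15 rose, and 4 also in the 8 arrays alone. The call of Siglech ended with cyclic loess, with the Y-linked covariate (adjusted p = 0.306), in the 8 arrays alone and without WT replicates 2 or 3 or Mst1/2-KO replicates 1, 3 or 4 (adjusted p up to 0.145).

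Some genes of the CD8+ DC lineage also rose in the CD8- arrays. Of 21 measured, 9 rose and 3 fell, against 3.9% and 2.79% of all genes, with a median of 0.537. Among those that fell were Ly75 (-0.95) and Id2 (-0.42). The count that rose was 7 without WT replicate 2 and 6 with the Y-linked covariate. Xcr1, the chemokine receptor that marks cross-presenting DCs, read 7.20, 6.91, 7.05 and 7.79 against 8.11, 7.99, 7.92 and 8.29 (0.84 ± 0.14, adjusted p = 0.00148). Its WT replicate 4 came closest to the Mst1/2-KO arrays without reaching them. Cadm1, an adhesion molecule of these DCs, read 6.95, 6.95, 7.41 and 7.61 against 7.98, 7.87, 8.03 and 8.19 (0.79 ± 0.12, adjusted p = 0.00072), and Cd24a, the gene of the CD24 antigen, 10.44, 9.98, 10.08 and 10.35 against 10.92, 10.79, 10.96 and 11.08 (0.72 ± 0.10, adjusted p = 0.000237). Its other probe set differed by 1.04 ± 0.13. Gcsam, a signalling adaptor, went from 5.14 ± 0.31 to 6.33 ± 0.40 and Ifi205, an interferon-inducible gene, from 9.32 ± 0.36 to 10.34 ± 0.28, both without overlap. Batf3, the factor on which CD8+ DCs depend, was not called (-0.15 ± 0.10), and neither was Cd8a (0.69 ± 0.21, adjusted p = 0.0556). The mean of the 21 genes was between 7.30 and 7.71 over the WT and between 7.66 and 7.98 over the Mst1/2-KO CD8- arrays, and between 10.20 and 10.46 over the WT CD8+ arrays. How far plasmacytoid or CD8+ DCs among the sorted cells account for these rises was not tested.

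Among 28 measured transcription factors of DC fate, 7 rose and 2 fell, with a median of 0.047. Runx1, a factor of blood cell development, read 7.93, 8.21, 7.95 and 8.16 in WT and 9.14, 8.64, 9.07 and 9.10 in Mst1/2-KO arrays (0.93 ± 0.13, adjusted p = 0.00044), Mst1/2-KO replicate 2 being the lowest of its group. Irf8, which CD8+ and plasmacytoid DCs need, read 9.68, 8.78, 9.14 and 9.91 against 10.12, 9.62, 10.75 and 10.64. Its groups overlapped, since WT replicate 4 stood above Mst1/2-KO replicate 2 (0.91 ± 0.23, adjusted p = 0.0226), and its other probe set differed by 1.12 ± 0.18 (adjusted p over all probe sets = 0.000927). Bach2, a repressor active in lymphocytes, went from 5.14 ± 0.29 to 5.72 ± 0.22 (adjusted p = 0.0209). The factors that define the CD8- lineage were not called, with Irf4 at -0.15 ± 0.21 and Klf4 at -0.21 ± 0.26, and neither were Spi1 (PU.1, 0.07 ± 0.06) and Zbtb46 (0.08 ± 0.16), which all conventional DCs use. Relb, the NF-kB subunit that CD8- DCs require, read 8.85, 8.80, 8.72 and 8.77 against 7.94, 7.94, 7.85 and 7.79 (-0.90 ± 0.14, adjusted p = 0.000942). Its arrays were tight in both groups, with an SD of 0.06 and 0.07. Id2, an inhibitor of E proteins such as E2-2, fell with overlapping groups (-0.42 ± 0.11, adjusted p = 0.0317). Without WT replicate 3, 2 of the 28 factors rose, and with the Y-linked covariate 3. The call of Irf8 ended with an intensity trend, with the Y-linked covariate (0.3) and in the 8 arrays alone. It also ended without WT replicates 2 or 3 or Mst1/2-KO replicates 3 or 4 (adjusted p up to 0.0891). That of Bach2 ended with the covariate (0.0595), in the 8 arrays alone and without WT replicates 3 or 4 or Mst1/2-KO replicates 1 or 4 (adjusted p up to 0.0835). That of Id2 ended with the covariate and in the 8 arrays alone (adjusted p up to 0.106). It also ended without WT replicates 2, 3 or 4 or Mst1/2-KO replicates 3 or 4 (adjusted p up to 0.107).

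Among markers of other cells that a sorted sample could hold, B cell genes fell most often. Of 14 B cell genes 4 fell and 0 rose, against 2.79% and 3.9% of all genes (median -0.017). Cr2, Ms4a1 (CD20), Blk and Cd22 fell, with Ms4a1 at 6.15, 5.89, 6.03 and 5.46 against 4.58, 5.00, 4.58 and 4.54 (-1.21 ± 0.18, adjusted p = 0.000505), Blk, a Src-family kinase, at 5.61, 7.17, 7.22 and 6.61 against 5.26, 5.18, 5.34 and 4.74 (-1.52 ± 0.26, adjusted p = 0.00137) and Cd22 at -0.47 ± 0.10. The lineage factors Pax5 (4.06 ± 0.11 and 4.03 ± 0.19) and Ebf1 (3.18 ± 0.22 and 3.17 ± 0.14) and the antigen receptor gene Cd79a (4.13 ± 0.30 and 4.10 ± 0.34) were at or below the array median in both genotypes. The mean of the 14 genes was between 5.31 and 5.50 over the WT and between 5.05 and 5.22 over the Mst1/2-KO arrays. Of 10 T cell genes 1 fell, Cd5 (-0.72 ± 0.14), a scavenger-type receptor that DCs also carry, and Cd3e (-0.24 ± 0.24), Cd3d (-0.23 ± 0.21) and Cd3g (-0.55 ± 0.33) were not called. Of 8 NK cell, 12 neutrophil and 3 erythroid genes 0 were called by limma, and 2, 0 and 0 had an unadjusted p under 0.05. Of 18 macrophage and monocyte genes 2 rose, Ly6c2 and Timd4, and 1 fell, Adgre1. Timd4, the receptor TIM-4 for phosphatidylserine on dying cells, read 5.85, 5.70, 6.36 and 5.95 against 7.66, 7.12, 8.15 and 7.30 (1.6 ± 0.18, adjusted p = 6.19e-05), and Adgre1, the gene of F4/80, 10.10, 10.37, 10.57 and 10.19 against 9.46, 9.32, 9.26 and 9.0 (-1.05 ± 0.15, adjusted p = 0.0005). The red pulp macrophage genes Spic (-0.54 ± 0.17), Vcam1 (-0.43 ± 0.22) and C1qa (-0.16 ± 0.14) were not called. The means of the T cell list (5.47 to 6.36 in WT, 5.46 to 5.79 in Mst1/2-KO) and of the macrophage and monocyte list (7.87 to 8.27 and 8.14 to 8.33) overlapped between the genotypes. With the Y-linked covariate the calls of Cd22 (adjusted p = 0.338) and Cd5 (0.184) ended.

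Maturation genes, which DCs raise as they migrate to T cell zones, were lower. Of 29 measured, 16 fell and 1 rose, with a median of -0.407. Ccr7, the receptor that guides this migration, read 11.41, 11.01, 10.63 and 10.70 in WT and 9.41, 9.59, 9.14 and 8.17 in Mst1/2-KO arrays. Mst1/2-KO replicate 4 was the lowest and the groups did not overlap (-1.86 ± 0.30, adjusted p = 0.00111). Cd274, the inhibitory ligand PD-L1, read 10.22, 10.16, 10.14 and 9.88 against 9.12, 9.16, 9.12 and 8.61 (-1.10 ± 0.22, adjusted p = 0.00435), replicate 4 again being the lowest Mst1/2-KO array. Fscn1, the actin-bundling protein of mature DCs, read 6.8, 7.16, 7.08 and 7.05 against 6.36, 6.12, 6.13 and 6.23 (-0.81 ± 0.09, adjusted p = 7.28e-05). Socs2, a suppressor of cytokine signalling, read 5.75, 6.18, 6.21 and 6.66 against 5.18, 3.99, 5.09 and 4.19 (-1.59 ± 0.32, adjusted p = 0.00507), while its other probe set, with a lower mean, differed by -0.23 ± 0.11 and was not called (adjusted p = 0.296). The co-stimulatory gene Cd40 fell as well (-0.41 ± 0.11), while Cd83 was not called (-0.29 ± 0.12). The gene that rose was Tnfsf9, the ligand of 4-1BB (0.69 ± 0.20, adjusted p = 0.0459), with overlapping groups, a gene named after its value was seen. The count that rose was 0 with cyclic loess, with an intensity trend, with the Y-linked covariate, in the 8 arrays alone and without WT replicates 2, 3 or 4 or Mst1/2-KO replicates 1, 2 or 4. The call of Cd40 ended with the Y-linked covariate (adjusted p = 0.057) and without WT replicates 2, 3 or 4 or Mst1/2-KO replicates 1, 2 or 4 (adjusted p up to 0.121). The count of maturation genes that fell was between 11 and 14 when an array was left out (fewest without WT replicate 3), and 9 with the Y-linked covariate.

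Within NF-kB signalling, 6 of 11 measured genes of the non-canonical arm fell and 1 rose (median -0.366). Relb, Ltb, Birc2, Traf2, Cd40 and Birc3 fell, and Ltbr rose (0.26, adjusted p = 0.0208). Not all of these genes promote the arm, so the count is no measure of its activity. Relb fell as above, and Birc2, an inhibitor of apoptosis protein that restrains this arm, read 9.06, 9.29, 9.43 and 9.40 against 8.74, 8.74, 8.85 and 8.26 (-0.65 ± 0.11, adjusted p = 0.00192). Nfkb2, the partner of Relb, was not called (-0.05 ± 0.07), nor was the kinase gene Map3k14 (NIK, -0.16 ± 0.10). Of 17 canonical genes 5 fell and 0 rose (median -0.171). The cytokine gene Tnf read 10.25, 10.32, 9.77 and 10.08 against 8.85, 9.59, 9.12 and 8.96 (-0.97 ± 0.17, adjusted p = 0.00214), with no overlap. Icam1, an adhesion ligand for T cells, fell by 0.53 and Cflar, the caspase inhibitor cFLIP, by 0.49 on the log2 scale (adjusted p = 0.00353 and 0.00461). The feedback inhibitor genes Nfkbia (-0.13 ± 0.11) and Tnfaip3 (-0.38 ± 0.19) were not called. The non-canonical count that fell was 2 without WT replicate 3 and 2 with the Y-linked covariate, and the canonical count 3 with the covariate. Tnf, Traf1, Relb, Cd40 and Birc3 are on more than 1 of these lists. Of 22 immediate-early and heat-shock genes, which respond to handling of cells, 0 were called by limma, 9 had an unadjusted p under 0.05, and 20 were below 0 (median -0.301). With the replicate number as a fixed block 6 fell, and without WT replicate 1 or Mst1/2-KO replicate 2, 1 fell.

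**Figure D3:**
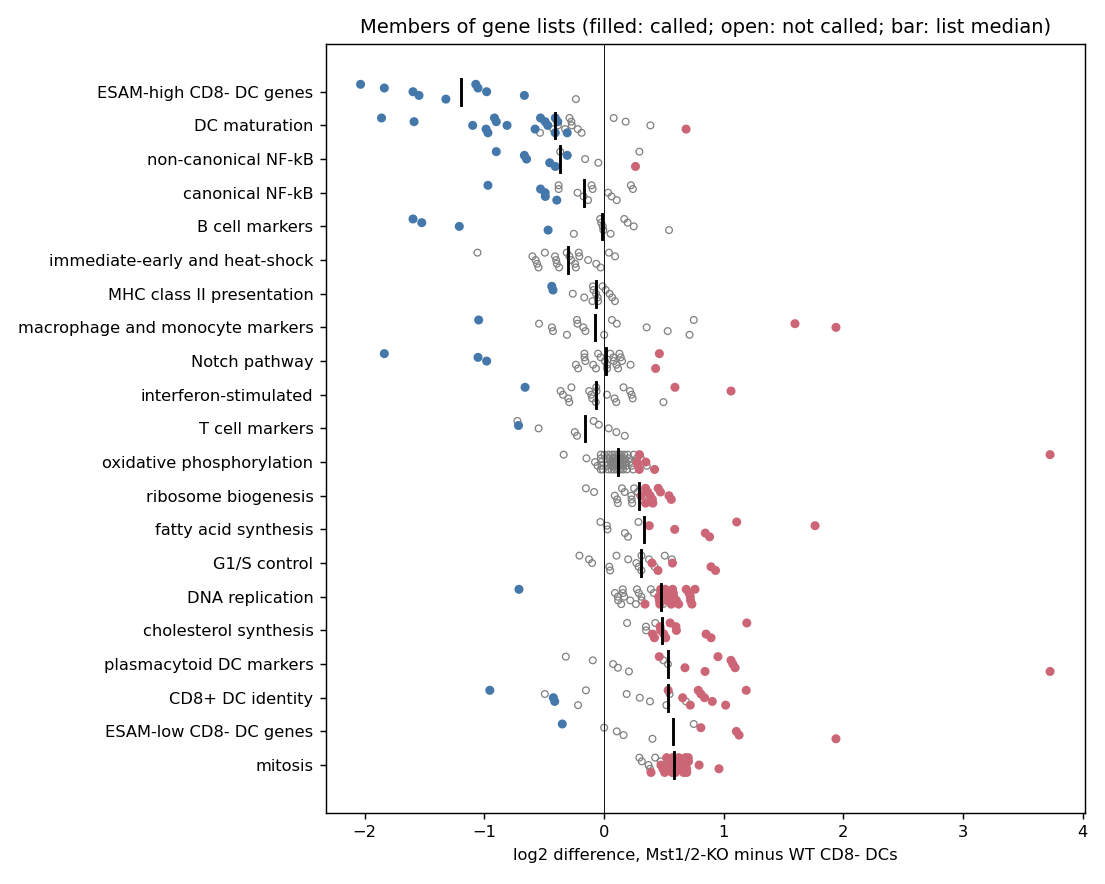
Log2 difference between Mst1/2-KO and WT CD8- DCs (x axis) of each measured member of 21 gene lists (y axis), filled where called and open where not, with the list median as a bar. All 34 mitosis genes and all 16 cholesterol synthesis genes lie above 0, and all 10 ESAM-high genes below it.

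Chemokine receptors and adhesion molecules changed gene by gene. Ccr1, a receptor for inflammatory chemokines, was near the array median in WT cells and read 4.15, 3.96, 3.87 and 4.06 against 5.37, 4.85, 6.23 and 5.72 (1.53 ± 0.20, adjusted p = 0.000181). Ccr6, which draws cells to its ligand Ccl20, read 7.48, 7.36, 8.66 and 7.83 against 6.61, 6.86, 6.64 and 6.36 (-1.22 ± 0.20, adjusted p = 0.00123), with WT replicate 3 the highest. Of 19 measured migration receptors 4 rose and 2 fell (median 0.057), and Cxcr4 (-0.11 ± 0.26) and Gpr183 (-0.00 ± 0.22), the oxysterol receptor that positions CD8- DCs, were not called. Among 23 adhesion genes 5 rose and 3 fell (median 0.144). Itgad, an integrin alpha chain of splenic phagocytes, read 5.89, 5.85, 6.41 and 6.26 against 7.53, 7.40, 7.10 and 7.48 (1.27 ± 0.18, adjusted p = 0.000385), and Itga5, the alpha chain of the fibronectin receptor, 5.73, 5.20, 5.28 and 5.31 against 6.15, 6.29, 6.61 and 6.45 (0.99 ± 0.14, adjusted p = 0.000424). With the Y-linked covariate 2 migration receptors and 2 adhesion genes rose. Itgb2, the beta chain shared by leukocyte integrins, was not called (0.16 ± 0.10). Of 13 semaphorin and plexin genes, 2 rose and 2 fell (median -0.021). Sema7a, a membrane-anchored semaphorin, read 9.86, 9.09, 8.92 and 8.91 against 7.69, 7.65, 7.78 and 6.98 (-1.67 ± 0.24, adjusted p = 0.000441), and its receptor gene Plxnc1 11.18, 11.43, 11.41 and 11.20 against 10.77, 10.77, 10.74 and 10.56 (-0.59 ± 0.08, adjusted p = 0.000201). Both were lower in every Mst1/2-KO array.

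Of 19 pattern recognition genes 3 rose and 4 fell (median -0.121). Besides Tlr5, Tlr7, the endosomal sensor of single-stranded RNA, read 10.55, 10.15, 10.36 and 10.19 against 9.38, 9.61, 9.34 and 8.65 (-1.07 ± 0.22, adjusted p = 0.00612), and Nod1, a cytosolic sensor of bacterial cell walls, 9.04, 9.37, 9.42 and 9.29 against 8.51, 8.81, 8.71 and 8.60 (-0.62 ± 0.10, adjusted p = 0.00106). Without WT replicate 2, 1 of these sensors rose, and with the Y-linked covariate 0 rose and 2 fell. Tlr9 (-0.12 ± 0.10) and Tlr2 (0.15 ± 0.12) were not called. Among 15 MHC class II presentation genes 2 fell, H2-Oa (-0.44 ± 0.08, adjusted p = 0.00334) and H2-Ob (-0.43 ± 0.10, adjusted p = 0.0174), the chains of the modulator H2-O, while H2-Ab1 (-0.05 ± 0.06), H2-Aa (-0.05 ± 0.06) and Ciita (-0.07 ± 0.11) were not called. Outside that list the class II gene H2-Eb2 read 10.15, 10.40, 10.53 and 10.39 against 8.78, 9.18, 9.0 and 8.08 (-1.61 ± 0.18, adjusted p = 5.37e-05). Among 18 class I presentation genes 1 was called, against 6.68% of all genes. It was H2-M2, a class Ib gene that read 10.11, 10.40, 9.73 and 10.54 against 8.73, 8.68, 8.51 and 7.78 (-1.77 ± 0.23, adjusted p = 0.000181). Of 22 interferon-stimulated genes 2 rose and 1 fell (median -0.064), against 3.9% and 2.79% of all genes. The calls of Tlr7 (adjusted p = 0.0663), H2-Oa (0.073) and H2-Ob (0.17) ended with the Y-linked covariate, and that of H2-Ob also in the 8 arrays alone and without WT replicates 2 or 3 or Mst1/2-KO replicate 4 (adjusted p up to 0.0635).

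Genes of lipid mediators stood among the largest changes. Alox5, 5-lipoxygenase, which starts leukotriene synthesis, read 6.95, 6.49, 6.25 and 7.22 in WT and 9.06, 8.73, 9.05 and 9.71 in Mst1/2-KO arrays. The lowest Mst1/2-KO array was more than 1 unit above the highest WT array (2.41 ± 0.19, adjusted p = 2.27e-06), and the other Alox5 probe set differed by 2.36 ± 0.28. Ltb4r1, the high-affinity receptor of leukotriene B4, read 5.86, 5.59, 5.50 and 5.70 against 7.36, 7.22, 7.11 and 7.47 (1.63 ± 0.13, adjusted p = 2.95e-06), and Cysltr1, a receptor of cysteinyl leukotrienes, 4.64, 4.19, 4.43 and 4.28 against 6.17, 5.68, 6.09 and 6.19 (1.65 ± 0.21, adjusted p = 0.000181). The 5-lipoxygenase partner Alox5ap (0.06 ± 0.07) and the downstream enzymes Lta4h (0.28 ± 0.11) and Ltc4s (-0.16 ± 0.17) were not called. On the prostaglandin side Hpgds, the haematopoietic prostaglandin D synthase, read 7.83, 8.06, 8.47 and 7.83 against 6.94, 6.73, 7.08 and 6.57 (-1.22 ± 0.19, adjusted p = 0.00063), Ptgir, the prostacyclin receptor, rose (0.74 ± 0.15, adjusted p = 0.0069) with overlapping groups, and Ptgs2, cyclooxygenase 2, was not called (-0.66 ± 0.28). Over 21 eicosanoid genes 5 rose and 1 fell, with a median of 0.086.

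Phospholipase C, endocytic adaptor and BMP genes were among those with the largest changes. Plcb4, a phospholipase C that produces inositol trisphosphate below G proteins, read 4.10, 4.12, 4.76 and 4.57 against 6.83, 6.58, 6.82 and 7.06 (2.44 ± 0.14, adjusted p = 2.25e-08). Of 11 phospholipase C genes 2 rose (median 0.04), the other being Plcb1, at 3.65, 3.81, 3.83 and 3.86 against 4.20, 4.34, 4.24 and 4.20 (0.46 ± 0.09, adjusted p = 0.00597). Plcb1 was below the array median in the WT arrays and near it in the Mst1/2-KO arrays. Plcb2 (0.03 ± 0.10) and Plcg2 (0.22 ± 0.09), the forms typical of leukocytes, were not called. Dab2, an adaptor of endocytosis, read 5.84, 6.28, 6.11 and 6.33 against 8.70, 8.85, 8.79 and 8.72 (2.63 ± 0.15, adjusted p = 2.25e-08), with an SD of 0.07 over the Mst1/2-KO arrays. Bmp2, a secreted growth factor of the TGF-beta family, had the largest fall of all genes tested, 7.39, 7.71, 7.65 and 7.43 against 5.20, 5.04, 4.64 and 4.66 (-2.66 ± 0.14, adjusted p = 9.06e-09). Of 27 BMP and TGF-beta genes 3 fell and 0 rose (median -0.016), the others being Id2 and Smad4, the shared signal transducer, at 8.83, 9.02, 9.01 and 9.02 against 8.65, 8.54, 8.54 and 8.46 (-0.42 ± 0.08, adjusted p = 0.00293). The BMP receptor genes Bmpr1a (-0.09 ± 0.08) and Bmpr2 (0.05 ± 0.12) and the target Id1 (0.07 ± 0.13) were not called.

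Many cell cycle genes rose in the Mst1/2-KO arrays. Of 20 measured G1/S genes, inhibitors such as Cdkn1a and Rb1 included, 5 rose and 0 fell, 12 had an unadjusted p under 0.05 and 17 were above 0 (median 0.313). E2f8, a repressor of the E2F family that peaks in S phase, read 6.43, 6.46, 6.58 and 6.62 in WT and 7.39, 7.33, 7.43 and 7.66 in Mst1/2-KO arrays (0.93 ± 0.12, adjusted p = 0.000211), and Ccnd3, cyclin D3, 6.86, 7.0, 7.10 and 7.14 against 7.94, 7.72, 7.95 and 8.05 (0.89 ± 0.14, adjusted p = 0.00063). E2f1 (0.27 ± 0.09), Ccnd1 (-0.13 ± 0.11) and Myc (0.42 ± 0.18) were not called. Of 41 DNA replication genes 23 rose and 1 fell (median 0.474). Mcm2 and Mcm5, subunits of the replicative helicase, read 7.03, 6.78, 6.85 and 6.52 against 7.42, 7.42, 7.43 and 7.80 and 6.72, 6.59, 6.84 and 6.88 against 7.48, 7.44, 7.24 and 7.92, and Cdc45, which activates that helicase, 5.65, 5.88, 6.08 and 5.85 against 6.63, 6.58, 6.43 and 6.70 (0.72 ± 0.13, adjusted p = 0.00301). Uhrf1, which keeps DNA methylation through replication, rose by 0.73 ± 0.12 and Chaf1a, a histone chaperone, by 0.71 ± 0.13. The gene that fell was Gins3 (-0.71 ± 0.19), with overlapping groups. Of 34 mitosis genes 25 rose and 0 fell (median 0.582). Cdk1, the kinase that drives mitosis, read 7.08, 7.12, 7.38 and 7.21 against 7.93, 7.81, 7.84 and 8.03 (0.70 ± 0.13, adjusted p = 0.00349), Anln, the contractile ring protein anillin, 5.81, 5.89, 6.04 and 6.10 against 6.72, 6.75, 6.85 and 7.37 (0.96 ± 0.17, adjusted p = 0.00231), and Ttk, a spindle checkpoint kinase, 5.38, 5.20, 5.79 and 5.6 against 6.21, 6.05, 6.14 and 6.33 (0.69 ± 0.13, adjusted p = 0.00408). The Mst1/2-KO arrays did not overlap the WT arrays for 29 of the 34 mitosis genes, all higher, against 6.52% of all genes. Without Mst1/2-KO replicate 4, 12 mitosis and 13 DNA replication genes rose, and with the Y-linked covariate 12 and 14. The G1/S count was between 3 and 7 when an array was left out, the fewest without WT replicate 4. The call of Cdk1 ended with the Y-linked covariate (adjusted p = 0.0589), and that of Gins3 in the 8 arrays alone and without WT replicates 2, 3 or 4 or Mst1/2-KO replicate 2 (adjusted p up to 0.103).

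Promoters of mitosis genes are known for the CHR element, TTTGAA, bound by the complex that times their expression. The 250 bases before the gene start of 3 mitosis genes are given from RefSeq (GRCm38.p6), 5′ to 3′ on the gene's strand, with each CHR match on either strand in capitals, since 10 of the 29 mitosis genes that had a window held it (34.5%), against 16.1% of 16990 windows. They are those of Cdk1 (chr10:69352913-69353162, minus strand), of Cdc20, the activator of the anaphase-promoting complex (chr4:118437344-118437593, minus strand), and of Top2a, the topoisomerase that untangles chromosomes (chr11:99024190-99024439, minus strand).
Cdk1: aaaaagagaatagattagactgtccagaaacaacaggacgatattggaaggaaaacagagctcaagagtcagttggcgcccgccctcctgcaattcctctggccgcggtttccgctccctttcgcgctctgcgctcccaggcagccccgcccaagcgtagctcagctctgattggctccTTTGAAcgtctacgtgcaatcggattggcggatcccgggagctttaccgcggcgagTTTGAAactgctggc
Cdc20: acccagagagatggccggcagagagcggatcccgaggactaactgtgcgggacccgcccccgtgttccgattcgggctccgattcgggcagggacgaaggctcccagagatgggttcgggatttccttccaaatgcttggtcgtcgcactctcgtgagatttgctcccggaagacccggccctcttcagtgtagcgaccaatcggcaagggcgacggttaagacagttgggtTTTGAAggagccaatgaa
Top2a: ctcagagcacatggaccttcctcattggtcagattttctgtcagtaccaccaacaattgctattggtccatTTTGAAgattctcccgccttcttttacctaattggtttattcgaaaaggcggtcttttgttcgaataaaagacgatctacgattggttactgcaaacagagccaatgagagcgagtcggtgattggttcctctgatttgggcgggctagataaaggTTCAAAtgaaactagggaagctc
Cdc20 read 6.02, 6.07, 5.95 and 5.83 in WT and 6.83, 6.23, 6.38 and 7.15 in Mst1/2-KO arrays (0.68 ± 0.17, adjusted p = 0.0198) and Top2a 8.26, 8.57, 8.70 and 8.44 against 9.0, 8.95, 9.01 and 9.32 (0.58 ± 0.12, adjusted p = 0.00773), both without overlap. Top2a was named after its value was seen. In these windows the last base of the match nearest the start lay 10 bases before it in Cdk1, 13 in Cdc20 and 18 in Top2a. A match is a description of letters and not a site. The call of Cdc20 ended with the Y-linked covariate (adjusted p = 0.0979), in the 8 arrays alone and without WT replicate 4 or Mst1/2-KO replicates 1 or 4 (adjusted p up to 0.0708).

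Cholesterol synthesis genes, which encode the enzymes from acetyl-CoA to cholesterol, were higher in the Mst1/2-KO arrays. Of 16 measured 12 rose and 0 fell, with a median of 0.487. Hmgcs1, which forms HMG-CoA, read 8.12, 7.62, 7.72 and 8.34 in WT and 8.60, 8.73, 9.12 and 8.76 in Mst1/2-KO arrays (0.85 ± 0.16, adjusted p = 0.00245). Fdps, which makes farnesyl diphosphate, read 7.26, 6.51, 6.6 and 7.23 against 8.09, 7.72, 8.42 and 8.15 (1.19 ± 0.18, adjusted p = 0.000626), and Sqle, the squalene epoxidase, 6.74, 6.39, 6.35 and 6.85 against 7.22, 7.14, 8.02 and 7.53 (0.90 ± 0.16, adjusted p = 0.00225). In all 3 genes WT replicates 2 and 3 were the lowest arrays, and no Mst1/2-KO array reached the WT range. The later enzymes Lss (0.52 ± 0.15) and Cyp51 (0.55 ± 0.11) also rose, and Mvk (0.19 ± 0.10), Pmvk (0.43 ± 0.13), Nsdhl (0.35 ± 0.10) and Hsd17b7 (0.35 ± 0.15) were not called. Of 10 genes that regulate sterols, 1 rose, the sterol transporter gene Stard4 (0.46 ± 0.12). The regulators Srebf2 (0.15 ± 0.06), Scap (-0.15 ± 0.07) and Insig1 (0.34 ± 0.15) and the exporters Abca1 (-0.11 ± 0.12) and Abcg1 (-0.12 ± 0.12) were not called. The calls of Hmgcs1 (adjusted p = 0.0863), Sqle (0.113), Cyp51 (0.175), Lss (0.591) and Stard4 (0.298) ended with the Y-linked covariate and that of Fdps did not (0.0289). The count of genes that rose was 6 without WT replicate 2 and 2 with the covariate. The call of Lss also ended without WT replicates 1, 2 or 3 or Mst1/2-KO replicates 1, 2, 3 or 4 (adjusted p up to 0.148), and that of Stard4 in the 8 arrays alone and without WT replicates 2, 3 or 4 or Mst1/2-KO replicates 1, 3 or 4 (adjusted p up to 0.104).

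The promoters of this pathway share a CCAAT box, which the factor NF-Y binds beside the sterol-responsive factor SREBP. All 13 cholesterol synthesis genes that had a RefSeq window held CCAAT on either strand (100%), against 38.7% of 16990 windows, and 3 of these windows are given in the same way with each match in capitals. They are those of Hmgcs1 (chr13:119690101-119690350, plus strand), Lss (chr10:76531355-76531604, plus strand) and Cyp51 (chr5:4104698-4104947, minus strand), genes of an early and of 2 later steps.
Hmgcs1: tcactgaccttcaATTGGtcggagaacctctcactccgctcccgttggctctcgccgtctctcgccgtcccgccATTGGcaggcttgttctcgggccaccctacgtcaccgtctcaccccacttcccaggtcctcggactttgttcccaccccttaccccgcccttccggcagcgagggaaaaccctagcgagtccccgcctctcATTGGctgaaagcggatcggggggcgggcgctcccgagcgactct
Lss: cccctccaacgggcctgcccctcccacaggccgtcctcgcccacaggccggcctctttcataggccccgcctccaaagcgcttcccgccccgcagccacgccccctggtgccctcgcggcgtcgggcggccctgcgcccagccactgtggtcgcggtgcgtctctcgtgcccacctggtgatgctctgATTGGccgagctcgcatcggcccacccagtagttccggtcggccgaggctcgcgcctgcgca
Cyp51: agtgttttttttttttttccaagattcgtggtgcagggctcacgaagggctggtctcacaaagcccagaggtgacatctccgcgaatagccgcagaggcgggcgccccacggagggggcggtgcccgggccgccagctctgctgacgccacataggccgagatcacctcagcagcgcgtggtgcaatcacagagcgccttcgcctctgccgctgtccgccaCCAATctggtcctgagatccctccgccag
Hmgcs1 held 3 matches, and Lss and Cyp51 held 1 each. CCAAT was also in 21 of 29 mitosis windows (72.4%) and 21 of 33 DNA replication windows (63.6%), and in 3 of 18 maturation windows (16.7%).

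Fatty acid genes rose with them. Of 12 measured 6 rose and 0 fell, with a median of 0.333. Fads2, a desaturase of polyunsaturated fatty acids, read 5.22, 4.41, 4.40 and 5.04 in WT and 6.46, 5.96, 6.65 and 7.06 in Mst1/2-KO arrays (1.76 ± 0.22, adjusted p = 0.000114), and Elovl6, an elongase, 4.70, 4.27, 4.32 and 4.97 against 5.74, 5.38, 5.67 and 5.91 (1.11 ± 0.17, adjusted p = 0.000797). Fasn, the fatty acid synthase, read 6.76, 6.41, 6.54 and 6.67 against 7.07, 7.10, 7.21 and 7.37 (0.59 ± 0.10, adjusted p = 0.00157). No Mst1/2-KO array overlapped the WT arrays in these 3 genes. Scd1 (0.03 ± 0.20) and Acaca (0.29 ± 0.10) were not called.

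Of 24 ribosome biogenesis genes 11 rose and 0 fell (median 0.295), led by Dkc1, the pseudouridine synthase dyskerin (6.28, 6.19, 6.42 and 6.19 against 6.73, 6.70, 6.94 and 6.96, 0.56 ± 0.10, adjusted p = 0.00159), and Utp20, a processing factor (0.54 ± 0.07, adjusted p = 0.00021). Of 66 oxidative phosphorylation genes 7 rose and 0 fell (median 0.121), against 3.9% and 2.79% of all genes. Apart from Cox6a2 the called differences lay between 0.28 (Sdhc) and 0.42 (Uqcr11). Of 16 TCA cycle genes 1 rose, against 3.9% of all genes. It was Fh1, fumarase (8.51, 8.40, 8.5 and 8.56 against 8.92, 8.92, 9.14 and 9.13, 0.54 ± 0.08, adjusted p = 0.00063). Of 18 glycolysis genes 4 rose and 1 fell (median 0.152). Aldoc, an aldolase, read 5.46, 4.86, 4.88 and 5.40 against 5.86, 5.85, 6.55 and 6.29 (0.98 ± 0.15, adjusted p = 0.000797) and Pfkp, a phosphofructokinase, 8.09, 7.70, 7.40 and 7.62 against 8.32, 8.5, 8.90 and 8.61 (0.88 ± 0.15, adjusted p = 0.00122), while the glucose transporter gene Slc2a3 fell (-0.67 ± 0.12, adjusted p = 0.00269), a call that ended with the Y-linked covariate (adjusted p = 0.0592). Of 13 BCL2 family genes 3 rose and 0 fell. Without WT replicate 2 the counts that rose were 6 for ribosome biogenesis, 3 for oxidative phosphorylation and 2 for glycolysis, and with the Y-linked covariate 4, 1 and 2. The survival gene Bcl2 read 7.23, 7.0, 6.88 and 7.09 against 7.51, 7.85, 7.90 and 7.62 (0.67 ± 0.10, adjusted p = 0.000463), though its other probe set differed by 0.17 ± 0.12 (adjusted p = 0.52), and Bak1, a pore-forming killer protein, 9.43, 9.31, 9.46 and 9.42 against 9.87, 9.91, 9.83 and 9.93 (0.48 ± 0.07, adjusted p = 0.00031).

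Whether the genotype effect in CD8- DCs differed from that in CD8+ DCs was tested as the difference of the effects in the same fit. Of 22180 genes 124 were called (0.559%), with 75 higher (0.338%) and 49 lower (0.221%) in CD8- DCs. In CD8+ DCs alone 197 genes were called (0.888%), 52 higher (0.234%) and 145 lower (0.654%). Of the 1482 genes called in CD8- DCs, 108 were also called in the difference (7.29%), and in 105 of these the effect was stronger in the CD8- direction. The 864 genes that rose in CD8- DCs had a median difference of 0.508 there and 0.137 in CD8+ DCs, and the 618 that fell had -0.551 and -0.135. Bmp2 differed by -2.66 ± 0.14 in CD8- and -0.04 ± 0.14 in CD8+ DCs, where its levels were 3.60 ± 0.20 in WT and 3.56 ± 0.20 in Mst1/2-KO arrays (difference of effects -2.62 ± 0.20, adjusted p = 2.38e-06). Cox6a2 (3.73 ± 0.17 against 0.54 ± 0.17), Dab2 (2.63 ± 0.15 against 0.24 ± 0.15) and Alox5 (2.41 ± 0.19 against -0.13 ± 0.19) also had a larger rise in CD8- DCs (adjusted p of the difference = 2.38e-06, 1.71e-05 and 0.00017).

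Of the ESAM-high genes, 3 of 10 differed between the subsets, Esam (-1.09 ± 0.20, adjusted p = 0.0149), Tlr5 (-1.44 ± 0.24, adjusted p = 0.00962) and Cr2 (-1.57 ± 0.28, adjusted p = 0.0147). For Cd4 (-1.27 ± 0.29, adjusted p = 0.06) and Jag1 (-1.10 ± 0.27, adjusted p = 0.0833) the difference of effects was not called. With genotype and replicate number as a random block, since sorted arrays of a genotype share numbers, 230 genes were called, all 124 among them, with Cd4 past the threshold (adjusted p = 0.0372) and Jag1 not (0.0506). Tcf4 differed by 1.16 ± 0.21 (adjusted p = 0.0126), being at 7.24 ± 0.20 and 7.16 ± 0.08 in the CD8+ arrays. The maturation list was lower in both subsets, with a median of -0.407 in CD8- and -0.56 in CD8+ DCs. Of its 29 genes 3 were called in the difference. The NF-kB lists had medians of -0.366 and -0.471 (non-canonical) and of -0.171 and -0.367 (canonical). Of their genes 0 were called in the difference by limma, and 4 and 3 had an unadjusted p under 0.05. A pair of chemokine genes on the maturation list had the stronger fall in CD8+ DCs. Ccl22, which attracts T cells, differed by -0.27 ± 0.22 in CD8- DCs, where it was not called, and by -2.46 ± 0.22 in CD8+ DCs (difference of effects 2.18 ± 0.31, adjusted p = 0.00257). Ccl5 read 11.96, 12.24, 12.12 and 12.16 against 11.37, 11.29, 11.32 and 10.57 in CD8- DCs (-0.99 ± 0.15) and differed by -2.19 ± 0.15 in CD8+ DCs (difference of effects 1.20 ± 0.22, adjusted p = 0.0151). Of the mitosis, DNA replication and cholesterol synthesis genes 0 were called in the difference by limma (0, 7 and 9 had an unadjusted p under 0.05), with medians of 0.582, 0.474 and 0.487 in CD8- and 0.494, 0.279 and 0.147 in CD8+ DCs. Without WT CD8- replicate 1 the difference called 259 genes, and without WT CD8- replicate 2 it called 79.

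**Figure D4:**
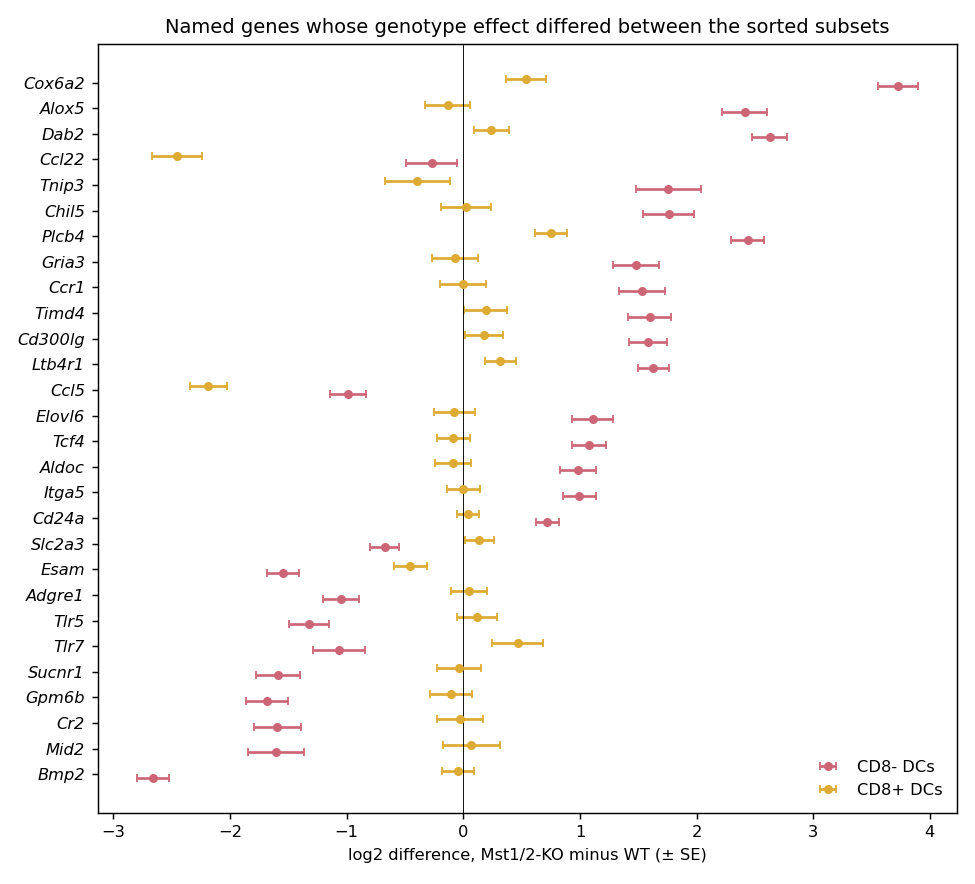
Log2 difference between Mst1/2-KO and WT arrays (x axis, ± SE, 4 arrays a group) in CD8- DCs (red) and CD8+ DCs (yellow) for the 28 named genes (y axis) whose effects differed between the subsets at an adjusted p under 0.05. Bmp2 and Cox6a2 differed by -2.66 and 3.73 in CD8- DCs against -0.04 and 0.54 in CD8+ DCs, and Ccl22 fell in CD8+ DCs.

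The total DC arrays share no array with the sorted ones and gave a separate reading of the same genotypes in a mixture of DC subsets. There 188 genes were called (0.848%), 70 higher (0.316%) and 118 lower (0.532%). Of the 1482 genes called in CD8- DCs, 1369 had the same sign in total DCs (92.4%), against 62.4% of all genes. Of the 1482, 136 were called in total DCs in the same direction (9.18%) and 0 in the opposite one, and these were 72.3% of the 188 genes called in total DCs. The genes that fell at least 2-fold in CD8- DCs carried over most often, with 90 of 90 below 0 in total DCs and 43 called (47.8%), at a median of -1.245 in CD8- and -1.004 in total DCs. Of the 79 genes that rose at least 2-fold, 77 were above 0 and 16 were called (20.3%), at medians of 1.235 and 0.572.

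Among the named genes, Cd4 (-2.20 ± 0.30, adjusted p = 0.0123), Jag1 (-1.48 ± 0.20, adjusted p = 0.013), Ccr7 (-1.53 ± 0.17, adjusted p = 0.00508), Adgre1 (-1.47 ± 0.22, adjusted p = 0.0192) and Plcb4 (1.68 ± 0.12, adjusted p = 0.00104) were called in total DCs with the sign they had in CD8- DCs. Esam (-0.91 ± 0.18, adjusted p = 0.0529) and Bmp2 (-1.20 ± 0.26, adjusted p = 0.0718) were lower in every Mst1/2-KO total DC array without being called. Of the 29 maturation genes 9 fell in total DCs (median -0.589), and of the 10 ESAM-high genes 2 (median -0.828). Of the 15 plasmacytoid DC markers 0 were called in total DCs by limma, with 7 at an unadjusted p under 0.05, and their median was -0.33, against 0.534 in CD8- DCs. Siglech differed by -0.81 ± 0.28 and Bst2 by -0.26 ± 0.32 there, and Ly6c2 by -0.09 ± 0.34, all with overlapping groups. The mitosis, DNA replication and cholesterol synthesis lists had 0 members called in total DCs by limma, 29, 27 and 3 members at an unadjusted p under 0.05, and medians of 0.456, 0.352 and 0.144. The total DC count rests on few arrays, since it was 39 without Mst1/2-KO total DC replicate 2 and 53 without replicate 1.

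**Figure D5:**
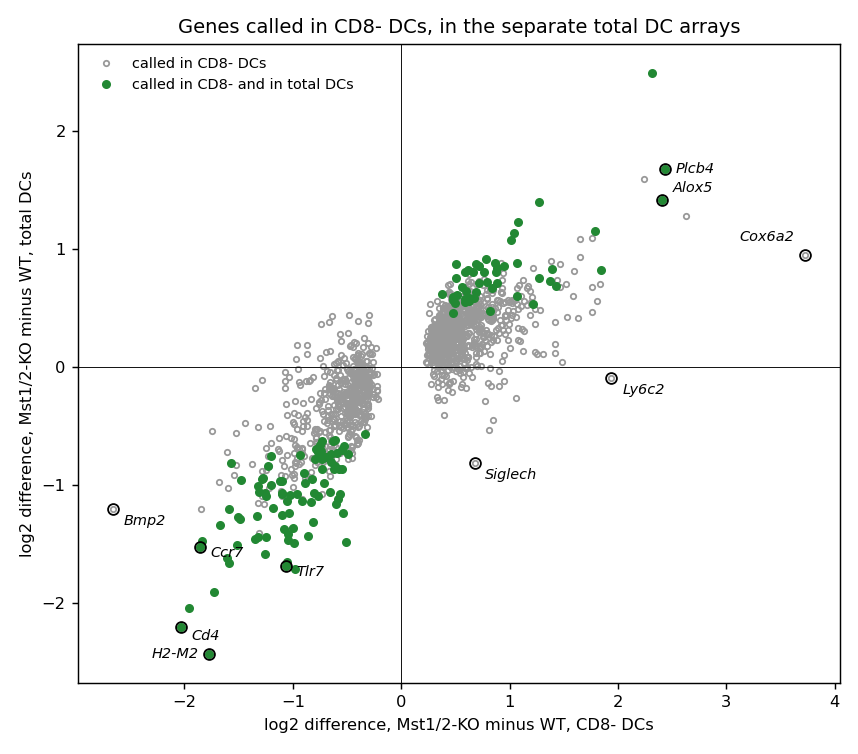
Each point is 1 of the 1482 genes called in CD8- DCs, with its log2 difference in CD8- DCs on the x axis and in the separate total DC arrays on the y axis, in green where it was called in both. The 136 genes called in both lie at the lower left and upper right, with Cd4 and H2-M2 among the lowest.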

How the data were processed

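Spleen DCs were sorted by FACS, and total RNA was amplified with NuGEN WTA Pico and hybridized to mouse gene arrays, per the labels' protocols. The submitters' processing notes name RMA and Partek 6.6. The deposited table holds log2 signals for 41155 probe sets on 34 arrays, as the authors normalized them, and 0 columns of values were left unmapped. A gene was represented by the probe set with the highest mean among those with 1 symbol in the platform annotation (23521 of 41155, with 1814 naming several genes and 15820 none), which gave 22180 genes. A limma model (version 3.58.1, R 4.3.3) held the group means of the 16 sorted arrays, without a block, and the total DC arrays had a fit of their own. P-values were adjusted over all genes by Benjamini-Hochberg. The procedure was tested on simulated data. The rule for named genes took Stk4, the 20 largest non-overlapping called changes each way, up to 8 called members of each list (the 2 smallest p where fewer than 2 were called), and the 5 largest subset differences each way. Other list members were named, after their values were seen, to show the spread of a list. The comparison and the lists were chosen with earlier results of these data known. Promoter windows are RefSeq's (GRCm38.p6). Alternatives were normalization, filtering, variance model, replicate block, probe set choice, arrays fitted, Y-linked signal and leaving out arrays.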

Additional observations from a re-analysis of the deposited data

Results flagged for a closer look

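The genotype effect of 28 named genes differed between CD8- and CD8+ DCs by the limma test of the difference (CD8- effect minus CD8+ effect, log2 scale). The difference was above 0 for Cox6a2 (3.19), Alox5 (2.54), Dab2 (2.39), Ccl22 (2.18), Tnip3 (2.15), Chil5 (1.74), Plcb4 (1.69), Gria3 (1.55), Ccr1 (1.54), Timd4 (1.41), Cd300lg (1.41), Ltb4r1 (1.31), Ccl5 (1.20), Elovl6 (1.19), Tcf4 (1.16), Aldoc (1.07), Itga5 (0.99) and Cd24a (0.68). It was below 0 for Bmp2 (-2.62), Mid2 (-1.68), Gpm6b (-1.57), Cr2 (-1.57), Sucnr1 (-1.55), Tlr7 (-1.53), Tlr5 (-1.44), Esam (-1.09), Adgre1 (-1.09) and Slc2a3 (-0.81). The adjusted p ran from 2.38e-06 for Bmp2 to 0.0476 for Slc2a3.

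In 28 of 410 groups of 4 arrays, 1 array stood far from the other 3 by Dixon's criterion, which chance meets in about 5% of groups. Of these arrays 10 were WT and 18 Mst1/2-KO. WT replicate 1 was low in Gpm6b (6.86, nearest array 7.44), Smad4 (8.83, nearest 9.01), Il7r (7.77, nearest 8.70) and Dlat (5.44, nearest 5.81) and high in Dnajb9 (10.00, nearest 9.53). WT replicate 2 was low in Fads1 (4.46, nearest 5.39) and Bst2 (8.75, nearest 9.22). WT replicate 3 was high in Ltbr (7.16, nearest 7.09) and Rrs1 (6.20, nearest 6.02), and WT replicate 4 in Aurkb (7.33, nearest 7.15).

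Mst1/2-KO replicate 1 was high in Esam (5.15, nearest 4.70), Fcgr2b (7.80, nearest 7.48), Ppargc1a (3.82, nearest 3.64) and Retnlg (4.33, nearest 4.12) and low in Gar1 (6.21, nearest 6.37). Replicate 2 was high in Ms4a1 (5.00, nearest 4.58) and low in Runx1 (8.64, nearest 9.07) and Gins3 (4.89, nearest 5.74), and replicate 3 was high in Cyp51 (7.89, nearest 7.48) and Myd88 (8.31, nearest 7.99). Replicate 4 was low in Sema7a (6.98, nearest 7.65), Cd274 (8.61, nearest 9.12), Ccl5 (10.57, nearest 11.29), Cxcl16 (8.46, nearest 8.78), Plxnc1 (10.56, nearest 10.74) and Dnajb9 (8.97, nearest 9.24), and high in Mcm2 (7.80, nearest 7.43) and E2f7 (5.61, nearest 5.17).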

How the results depend on the processing

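In CD8- DCs the count of called genes was 1471 with quantile normalization, 1509 with cyclic loess (50.4% of them higher, against 58.3% as reported), 1576 with an intensity trend and 1192 with the 8 CD8- arrays alone. The Y-linked covariate gave 611 (317 higher, 294 lower), and leaving out 1 array between 918 and 1533 (504 to 964 higher, 404 to 667 lower). The labels do not say whether the same replicate numbers pair WT with Mst1/2-KO CD8- arrays. Their deviations correlated at 0.013 to 0.086, WT replicates 2 and 4 best with their own number and WT replicates 1 and 3 with another. Between CD8- and CD8+ arrays of a genotype they correlated at 0.126 to 0.337 (WT) and 0.093 to 0.213 (Mst1/2-KO), each array best with its own number, a hint from the data that the labels do not state. The number as a replicate block gave 1615 genes as a fixed factor and 1503 as a random one. For the subset difference the random block gave 230 (139 higher, 91 lower) in place of 124, and leaving out 1 array 79 to 259 (45 to 155 higher, 30 to 104 lower). In total DCs the lower count was 190 with quantile normalization, 296 genes (130 higher) were called among those above the median gene and 108 (28 higher) with the replicate block, and leaving out 1 array gave 39 to 169 (6 to 67 higher, 33 to 110 lower). Of 187 named genes called, 129 kept the call without each array and 95 also under every other setting. Eif2s3y turned to 0.09 with the Y-linked covariate, which is built from it. The cause of the other changes was not tested. Genes near the array median of 4.11 to 4.20 are limited by their signal.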

Other observations

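Several genes with large changes belong to none of the groups described. Gria3, a subunit of AMPA-type glutamate receptors, read 6.22, 6.08, 6.08 and 6.39 in WT and 7.70, 6.97, 7.94 and 8.10 in Mst1/2-KO CD8- arrays, without overlap (1.48 ± 0.20, adjusted p = 0.000201). Sucnr1, the receptor of succinate, read 5.67, 6.29, 6.90 and 6.75 against 4.89, 5.00, 4.75 and 4.62 (-1.59 ± 0.19, adjusted p = 9.43e-05), and Gpm6b, a membrane glycoprotein, 6.86, 7.47, 7.5 and 7.44 against 5.64, 5.71, 5.83 and 5.35 (-1.68 ± 0.18, adjusted p = 3.33e-05). Both were lower in every Mst1/2-KO array. Chil5, a chitinase-like protein, read 5.16, 5.01, 5.08 and 5.56 against 7.29, 6.50, 6.71 and 7.36 (1.76 ± 0.22, adjusted p = 0.000119), and Cd300lg, an immunoglobulin-type receptor, 4.41, 4.05, 3.77 and 4.47 against 5.58, 5.45, 6.06 and 5.94 (1.58 ± 0.16, adjusted p = 2.64e-05). Cd300lg was near the array median in the WT arrays.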
